A study of Mus musculus with 9 samples.

Results

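Adipocyte markers are the transcripts by which fat cells are recognised in a tissue, and 9 of them were followed here through the muscle libraries: Adipoq, Lep, Retn, Cfd, Plin1, Cidec, Plin4, Fabp4 and Scd1. They were chosen by symbol from the deposited expression table, and all 9 were found among its 23231 genes. The table covers the tibialis anterior, a shin muscle, of C57BL/6 mice aged 6 months, into which small interfering RNA (siRNA) had been electroporated. There were 9 libraries, 3 from muscle that received a non-targeting control siRNA, 3 from muscle that received siRNA construct 5 and 3 from muscle that received construct 7. Both constructs were directed against Ubr4, a ubiquitin ligase that the series links to myofiber size. Every group, the controls included, had been electroporated with an siRNA. RNA was taken from the muscle as a whole, so each library held RNA of fibres and of all other cells in the piece dissected. Values are FPKM, which counts fragments relative to gene length and to sequencing depth, so levels can be compared between genes. Nothing in the labels says that samples came from separate animals, so each p-value measures only the spread between these samples, which may be technical.

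White adipocytes store triglyceride in a large lipid droplet coated by perilipins and CIDEC. They also secrete hormones, among them adiponectin and leptin. In skeletal muscle, adipocytes lie between fibres and fibre bundles, and stromal cells called fibro-adipogenic progenitors can become adipocytes. The labels do not say how the muscle was dissected.

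Sequencing depth, read off the smallest increments of the FPKM values, ran from 29312121 to 45563538 reads, with construct 5 replicate 2 the deepest. A gene 1 kilobase long with 3 reads would show 0.0658 to 0.102 FPKM in these libraries, a floor for counting error only. Ubr4 (ENSMUSG00000066036), the siRNA target, checked the labels: it stood at 7.82, 10.3 and 9.09 FPKM in the controls, at 3.61, 3.80 and 2.73 with construct 5, and at 2.25, 2.58 and 3.07 with construct 7. Every siRNA library lay below every control. limma on log2(FPKM + 1), with Benjamini-Hochberg adjustment over 10794 genes, gave Ubr4 a log2 change of -1.20 (SE 0.129, adjusted p = 0.0168) with construct 5 and of -1.47 (adjusted p = 0.00882) with construct 7. The tissue label was met by Acta1 and Ckm, the actin and creatine kinase of muscle fibres, at means of 18137 and 13058 FPKM.

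The markers fell into a group that swung widely from library to library and a pair that moved much less. Adipoq, Lep, Retn, Cfd, Plin1 and Cidec were all highest in 1 library, construct 5 replicate 2, and 4 of these 6 were lowest in construct 7 replicate 2. Scd1 was highest in the same construct 5 library but spanned a narrower range. Fabp4 and Plin4, much more abundant, spanned only 1.27-fold and 1.54-fold ranges. All 9 had values above 0 in every library, and the 5 with a mean of at least 1 FPKM (Adipoq, Cfd, Scd1, Fabp4 and Plin4) entered the test. Of these 5, 1 passed in the comparison of construct 5 with the controls, Scd1, where 5.27% of all tested genes passed, and its call was lost in 18 of 20 alternatives. With construct 7, 0 of 5 passed, where 0.0556% of tested genes did.

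**Figure D1:**
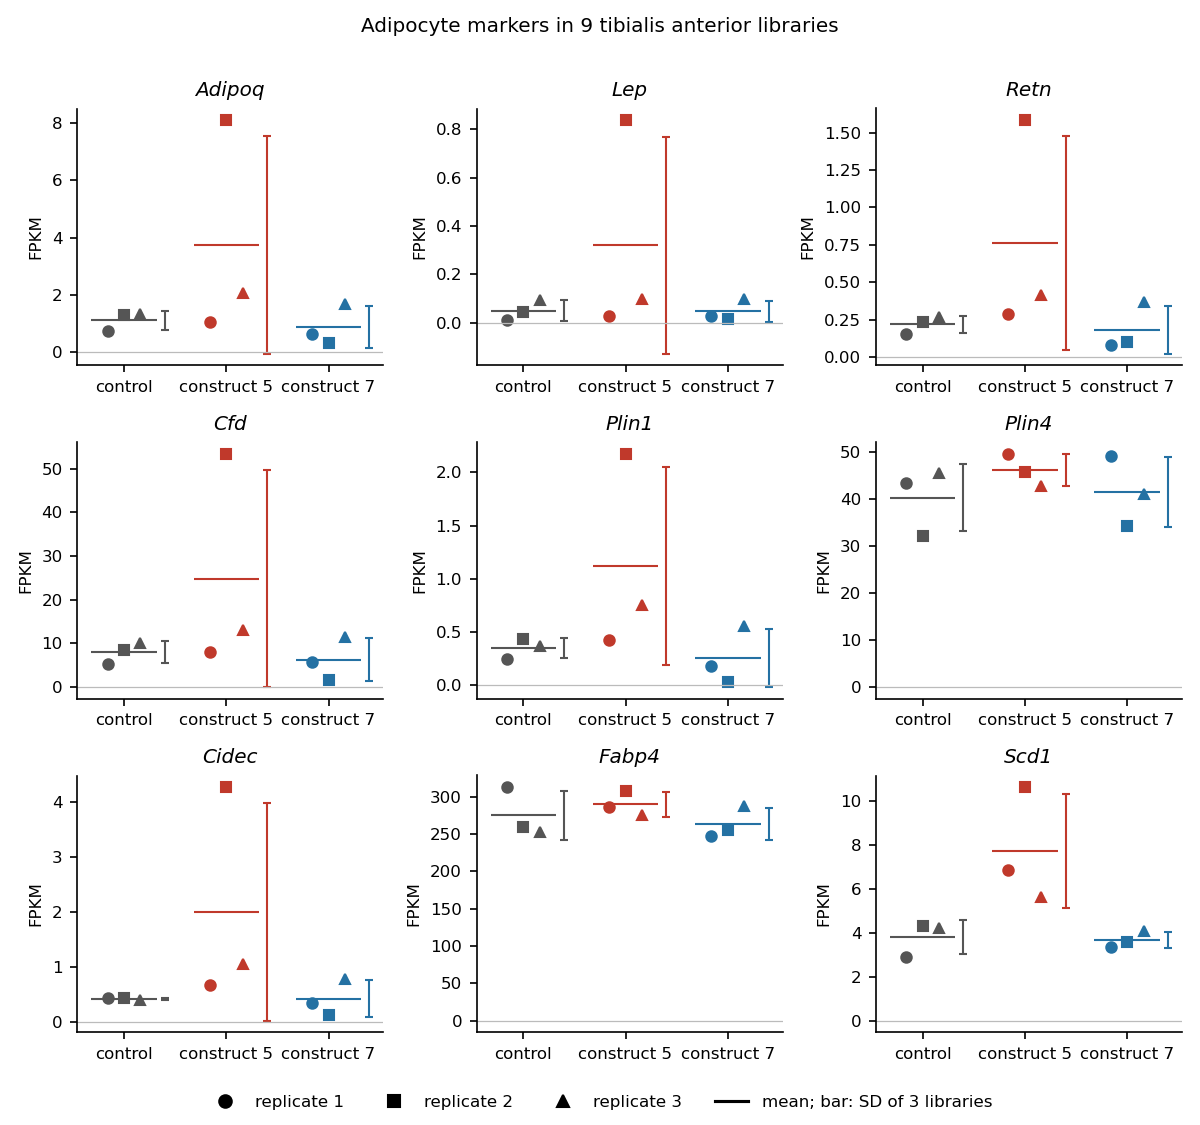
FPKM of each of the 9 markers (vertical axes, linear, 1 scale per gene) in the control, construct 5 and construct 7 groups; points are libraries, horizontal lines group means, bars the SD of 3 libraries. In 7 panels the highest point is construct 5 replicate 2, for Adipoq at 8.09 FPKM against 0.320 to 2.07 in the other 8 libraries, while Fabp4 and Plin4 show no such point.

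Among the secreted products, Adipoq encodes adiponectin, a hormone made almost only by adipocytes. Adipoq (ENSMUSG00000022878) stood at 0.741, 1.30 and 1.32 FPKM in the controls, at 1.07, 8.09 and 2.07 with construct 5, and at 0.637, 0.320 and 1.70 with construct 7. A single construct 5 library was far above the rest, and the ranges of the 3 groups overlapped. The Adipoq level in construct 5 replicate 2 was 6.82 times the median of the other 8 libraries and rested on 509 reads (95% exact Poisson interval 466 to 555). Construct 7 replicate 2, the lowest, held 17 reads (interval 9.90 to 27.2), and the highest level was 25.3 times the lowest. Such intervals cover counting error only, since reads amplified by PCR are not independent molecules. In bulk RNA, fewer fat cells and less RNA per fat cell cannot be told apart.

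The group means of Adipoq were 1.12 ± 0.330 FPKM (SD, n = 3) in the controls, 3.75 ± 3.80 (SD, n = 3) with construct 5 and 0.885 ± 0.722 (SD, n = 3) with construct 7. The construct 5 mean was 3.34 times the control mean, and 1.40 times it without construct 5 replicate 2. By limma the log2 change of Adipoq was 0.88 with construct 5 (95% interval -0.19 to 1.94, adjusted p = 0.224) and 0.26 without that library (adjusted p = 0.568). With construct 7 the log2 change was -0.22 (95% interval -1.29 to 0.84, adjusted p = 0.936). The order of the means, construct 5 over control over construct 7, held no step that passed the test. The lower mean with construct 7 rested on construct 7 replicate 2, without which the log2 change was -0.0014.

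Because these markers moved together, promoter sequence is shown for some of them, taken from RefSeq on GRCm38.p6 as the 250 bases before the annotated start. Capitals mark CCAAT, in either orientation, and TTGCNNAA, a form of the site bound by C/EBP factors, which drive fat cell differentiation. The Adipoq promoter, chr16:23146286-23146535 on the plus strand, holds CCAAT 3 times, beginning 34, 27 and 7 bases upstream of the start.
Adipoq: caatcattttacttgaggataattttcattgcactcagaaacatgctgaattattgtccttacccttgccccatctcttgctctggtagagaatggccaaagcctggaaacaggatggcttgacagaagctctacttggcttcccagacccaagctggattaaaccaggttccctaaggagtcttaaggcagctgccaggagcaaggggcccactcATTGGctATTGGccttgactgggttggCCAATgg
CCAAT is a common word, present in 33.8% of 32851 RefSeq promoter windows of that length, and TTGCNNAA is present in 9.56% of them. A match is a description, not a site or a cause.

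Lep encodes leptin, the hormone by which fat mass is signalled to the brain. Lep (ENSMUSG00000059201) was close to the limit of detection, with 1, 5 and 10 reads in the controls, 3, 128 and 10 with construct 5, and 3, 2 and 14 with construct 7. Its 128 reads in construct 5 replicate 2 (95% exact Poisson interval 107 to 152) stood against at most 14 in any other library. In FPKM that library reached 0.838, and the other 8 lay between 0.0102 and 0.0981. Means were 0.0506 ± 0.0429 FPKM (SD, n = 3) in the controls, 0.321 ± 0.449 (SD, n = 3) with construct 5 and 0.0468 ± 0.0438 (SD, n = 3) with construct 7, so construct 5 replicate 2 alone set the Lep mean of its group apart. The Lep promoter, chr6:29059971-29060220 on the plus strand, holds TTGCNNAA once, 55 bases upstream of the start.
Lep: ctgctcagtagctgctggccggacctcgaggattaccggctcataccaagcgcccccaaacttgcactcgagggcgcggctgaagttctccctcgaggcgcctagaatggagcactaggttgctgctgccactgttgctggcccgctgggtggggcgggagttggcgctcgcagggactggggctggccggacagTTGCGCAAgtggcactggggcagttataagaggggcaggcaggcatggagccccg

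Retn encodes resistin, a small cysteine-rich protein that adipocytes secrete in mice. Retn (ENSMUSG00000012705) stood at 0.151, 0.235 and 0.264 FPKM in the controls, at 0.287, 1.58 and 0.417 with construct 5, and at 0.0795, 0.0989 and 0.368 with construct 7. All 3 construct 5 libraries lay above all 3 controls, though construct 5 replicate 1 cleared the highest control only narrowly, with 15 reads against 13. The 114 reads of construct 5 replicate 2 gave Retn a level 6.35 times the median of the other libraries. The construct 5 mean, 0.763 ± 0.715 FPKM (SD, n = 3), was 3.52 times the control mean of 0.217 ± 0.0586 (SD, n = 3), and 1.62 times it without that library. Construct 7 averaged 0.182 ± 0.161 FPKM (SD, n = 3), and its replicate 1, with 4 reads, was the lowest library for Retn.

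Cfd encodes adipsin, complement factor D, a protease that fat cells release into the blood. Cfd (ENSMUSG00000061780) was the most abundant of the secreted markers, at 5.21, 8.48 and 10.1 FPKM in the controls, 8.12, 53.5 and 12.9 with construct 5, and 5.61, 1.61 and 11.4 with construct 7. The same pair of libraries as for Adipoq marked its extremes: 6.44 times the median of the others at the top and a 33.3-fold range in all. Group means were 7.94 ± 2.50 FPKM (SD, n = 3) in the controls, 24.8 ± 24.9 (SD, n = 3) with construct 5 and 6.22 ± 4.95 (SD, n = 3) with construct 7. limma gave Cfd a log2 change of 1.13 with construct 5 (95% interval -0.41 to 2.68, adjusted p = 0.270), or 0.38 without construct 5 replicate 2 (adjusted p = 0.672). With construct 7 it gave -0.54 (95% interval -2.08 to 1.0, adjusted p = 0.866), a value that became 0.06 when construct 7 replicate 2 was left out.

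Among the proteins of the lipid droplet, Plin1 encodes perilipin 1, the coat protein that controls access of lipases to the fat cell's droplet. Plin1 (ENSMUSG00000030546) stood at 0.249, 0.436 and 0.368 FPKM in the controls, at 0.426, 2.18 and 0.756 with construct 5, and at 0.180, 0.0272 and 0.557 with construct 7. Its top library was again construct 5 replicate 2, at 5.48 times the median of the others, and its bottom library construct 7 replicate 2, with groups overlapping. Means were 0.351 ± 0.0945 FPKM (SD, n = 3), 1.12 ± 0.930 (SD, n = 3) and 0.255 ± 0.273 (SD, n = 3) for control, construct 5 and construct 7. The construct 5 mean of Plin1 was 3.19 times the control mean, and 1.68 times it without construct 5 replicate 2. The Plin1 promoter, chr7:79732777-79733026 on the minus strand, holds TTGCNNAA at 187 and at 58 bases upstream of the start.
Plin1: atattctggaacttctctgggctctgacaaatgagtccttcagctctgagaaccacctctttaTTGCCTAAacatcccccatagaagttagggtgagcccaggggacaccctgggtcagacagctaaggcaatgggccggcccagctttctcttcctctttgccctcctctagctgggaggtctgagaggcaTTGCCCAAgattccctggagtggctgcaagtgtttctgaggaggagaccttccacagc

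Cidec encodes the protein through which small droplets fuse into the large droplet of white fat cells. Cidec (ENSMUSG00000030278) was even across the controls, at 0.441, 0.433 and 0.397 FPKM, and stood at 0.668, 4.27 and 1.06 with construct 5 and at 0.355, 0.126 and 0.788 with construct 7. Every construct 5 library lay above every control, from 41 reads in construct 5 replicate 1 against at most 26 in a control. Construct 7 libraries lay on both sides of the controls. The construct 5 mean, 2.00 ± 1.97 FPKM (SD, n = 3), was 4.72 times the control mean of 0.424 ± 0.0233 (SD, n = 3), and 2.04 times it without construct 5 replicate 2, whereas construct 7 averaged 0.423 ± 0.336 (SD, n = 3). With no filter on level, limma gave Cidec a log2 change of 0.88 (95% interval -0.01 to 1.78, adjusted p = 0.229). On reads recovered from the FPKM steps, limma's voom gave 1.90 (95% interval 0.02 to 3.77, adjusted p = 0.161), so neither fit passed the threshold of 0.05.

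Plin4 encodes perilipin 4, a coat protein of small droplets that is present in muscle as well as in fat. Plin4 (ENSMUSG00000002831) stood at 43.4, 32.2 and 45.5 FPKM in the controls, at 49.7, 45.8 and 42.9 with construct 5, and at 49.1, 34.2 and 41.1 with construct 7. The libraries spanned a 1.54-fold range, the groups overlapped, and construct 5 replicate 2 was 1.06 times the median of the others. Means were 40.3 ± 7.16 FPKM (SD, n = 3), 46.1 ± 3.41 (SD, n = 3) and 41.5 ± 7.47 (SD, n = 3) for control, construct 5 and construct 7. limma gave Plin4 log2 changes of 0.20 with construct 5 (95% interval -0.14 to 0.55, adjusted p = 0.377) and 0.04 with construct 7 (95% interval -0.30 to 0.39, adjusted p = 0.972). The Plin4 promoter, chr17:56109783-56110032 on the minus strand, is shown as that of a marker that did not follow Adipoq; it holds CCAAT once, 18 bases upstream, and no TTGCNNAA.
Plin4: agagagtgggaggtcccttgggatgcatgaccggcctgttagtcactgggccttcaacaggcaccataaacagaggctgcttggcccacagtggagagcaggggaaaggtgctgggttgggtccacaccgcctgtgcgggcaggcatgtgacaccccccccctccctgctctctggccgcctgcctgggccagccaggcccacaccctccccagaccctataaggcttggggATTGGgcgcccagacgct

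Over the 8 promoter windows that RefSeq gave for 7 of the 9 markers (Cidec has 2), TTGCNNAA was found in 3, those of Plin1, Lep and the second Cidec window, and CCAAT in 2. AGGTCA, the core recognised by nuclear receptors, was found in 0 of 8 windows (14.0% of all windows), TATAAA in 0 of 8 (12.4% of all), and a direct repeat of AGGNCA with 1 base between, the form bound by PPARG with RXR, in 0 of 8 (0.338% of all). Both strands were searched, and AGGTCA can overlap the direct repeat. The absence of a match says only that these letters are not in this window. Of the markers that moved with Adipoq, Cfd and Retn had windows with none of the 5 words.

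Of the enzymes and binding proteins, Fabp4 encodes the fatty acid binding protein of adipocytes, which capillary endothelium also makes. Fabp4 (ENSMUSG00000062515) was the most abundant marker, at 312.6, 259.8 and 252.1 FPKM in the controls, 285.5, 307.8 and 275.6 with construct 5, and 246.9, 255.2 and 287.1 with construct 7. Its libraries spanned a 1.27-fold range and its groups overlapped. Means were 275 ± 32.9 FPKM (SD, n = 3), 289.6 ± 16.5 (SD, n = 3) and 263 ± 21.2 (SD, n = 3) for control, construct 5 and construct 7. limma gave Fabp4 log2 changes of 0.08 with construct 5 (95% interval -0.15 to 0.31, adjusted p = 0.595) and -0.06 with construct 7 (95% interval -0.29 to 0.17, adjusted p = 0.910). The sign of the first turned under median-ratio scaling, to -0.07. The summed level of 10 endothelial genes ran from 105 to 137 FPKM over the 9 libraries and was highest in construct 5 replicate 2. Of these genes 6 were highest there, against 21.5% of all tested genes. The part of endothelium in the level of Fabp4 was not tested.

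Scd1 encodes stearoyl-CoA desaturase, which makes monounsaturated fatty acids and is strongly expressed in fat and liver. Scd1 (ENSMUSG00000037071) stood at 2.91, 4.29 and 4.24 FPKM in the controls, at 6.87, 10.6 and 5.64 with construct 5, and at 3.37, 3.59 and 4.07 with construct 7. All 3 construct 5 libraries lay above every control and every construct 7 library. The construct 5 mean, 7.71 ± 2.59 FPKM (SD, n = 3), was 2.02 times the control mean of 3.81 ± 0.785 (SD, n = 3), and 1.64 times it without construct 5 replicate 2. limma called Scd1 higher with construct 5, by a log2 change of 0.83 (SE 0.194, 95% interval 0.39 to 1.27, adjusted p = 0.0492). The direction held in all 20 alternatives run, with log2 changes of 0.48 to 1.01, but the call was lost in 18 of them, with adjusted p up to 0.153, and kept only with a pseudocount of 0.5 and without construct 5 replicate 3. Without construct 5 replicate 2 the log2 change was 0.60 (adjusted p = 0.0777).

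With construct 7, Scd1 averaged 3.68 ± 0.358 FPKM (SD, n = 3), and limma gave a log2 change of -0.03 (95% interval -0.47 to 0.41, adjusted p = 0.983). The difference between constructs, tested directly, was -0.86 (SE 0.194, 95% interval -1.30 to -0.42, adjusted p = 0.0637) and missed the threshold. It passed when construct 5 replicate 3 was left out (adjusted p = 0.0424). Scd1 was the 1 tested marker whose construct 5 libraries were apart from both other groups. Of all tested genes, 38.2% had construct 5 apart from control and 25.4% had the constructs apart.

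**Figure D2:**
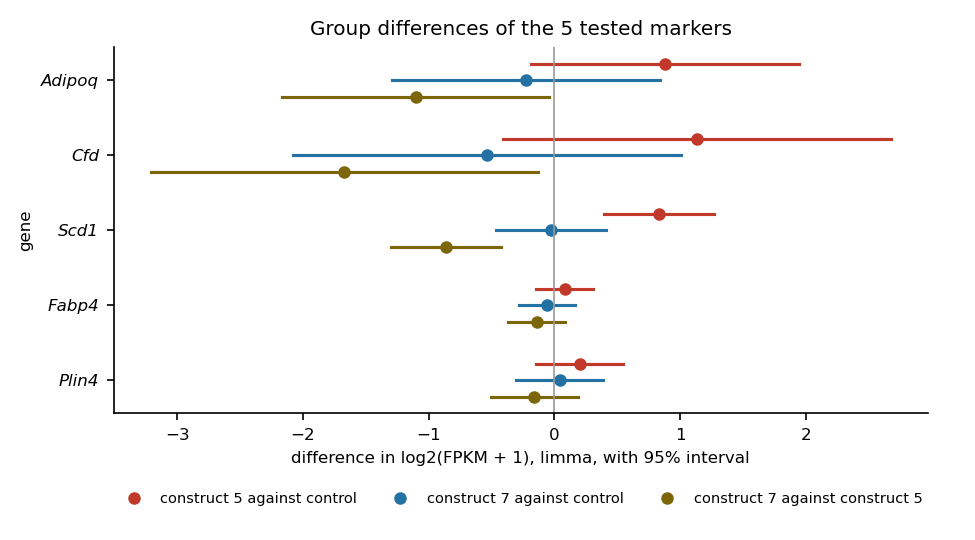
Differences between groups in log2(FPKM + 1) for the 5 markers that entered the test (horizontal axis), with 95% intervals from limma; colours give the comparison. The interval of Scd1 with construct 5 runs from 0.39 to 1.27, whereas those of Adipoq and Cfd are wide and those of Fabp4 and Plin4 narrow around 0.

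The counts over the markers are set against all genes. With construct 5, 1 of 5 tested markers was called, where 5.27% of 10794 genes were called and the median log2 change of all genes was 0.13. The median over the 5 markers, which is the value of Scd1, was 0.83. Without construct 5 replicate 2 the log2 changes were 0.60 for Scd1, 0.38 for Cfd, 0.26 for Adipoq, 0.21 for Plin4 and 0.04 for Fabp4. The number of genes called, 569, fell to 1 without construct 5 replicate 1 and to 42 without construct 5 replicate 2. With no filter on level, the 4 markers under 1 FPKM were not called either (limma adjusted p from 0.229 for Cidec to 0.428 for Lep). Median-ratio scaling, whose factors were 1.02 to 1.11 for construct 5 and 0.953 to 0.976 for control libraries, left Scd1 at 0.70 (limma adjusted p = 0.0909), Adipoq at 0.79 and Cfd at 1.0. With construct 7, 0 of 5 markers were called, where 0.0556% of genes were. Between the constructs 0 of 5 were called (1.22% of genes), and for both constructs averaged against control 0 of 5 (0.00926% of genes). At an unadjusted p under 0.05 limma counted 3447, 1022, 2491 and 2066 genes in those comparisons. The contrasts with the controls share the same 3 control libraries and are not independent.

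Whole separation of the groups was not frequent among the markers either. Construct 5 and control did not overlap for 3 of 9 markers (Scd1, Cidec and Retn), of which 1 of the 5 tested, against 38.2% of tested genes. Construct 7 and control overlapped for all 9, where 16.8% of tested genes did not. The constructs did not overlap for 1 of 9 markers, Scd1, against 25.4% of tested genes. These shares are near or below those of all genes, and the markers were not set apart by how often their groups separated.

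What set several of them apart was the spread inside a group. The within-group SD on the log2 scale was 1.05 for Cfd and 0.72 for Adipoq, where the median over tested genes was 0.117. Only 5 of 10794 genes had a larger within-group SD than Cfd, and 42 had a larger one than Adipoq. Scd1 (0.286), Plin4 (0.220) and Fabp4 (0.126) lay at percentiles 92.7, 86.6 and 56.1 of the tested genes. Construct 5 replicate 2 was the highest library for 7 of 9 markers, or 3 of the 5 tested, and for 21.5% of all tested genes. It was at least 2-fold above the median of the other 8 for those 7 markers, again 3 of the 5 tested, which among tested genes held for 2.12%. Construct 7 replicate 2 was the lowest library for 4 of 9 markers (Adipoq, Cfd, Plin1 and Cidec), or 2 of the 5 tested, and for 11.8% of tested genes. Both libraries were singled out because these same markers were extreme in them, so the shares describe the pattern and do not test it.

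**Figure D3:**
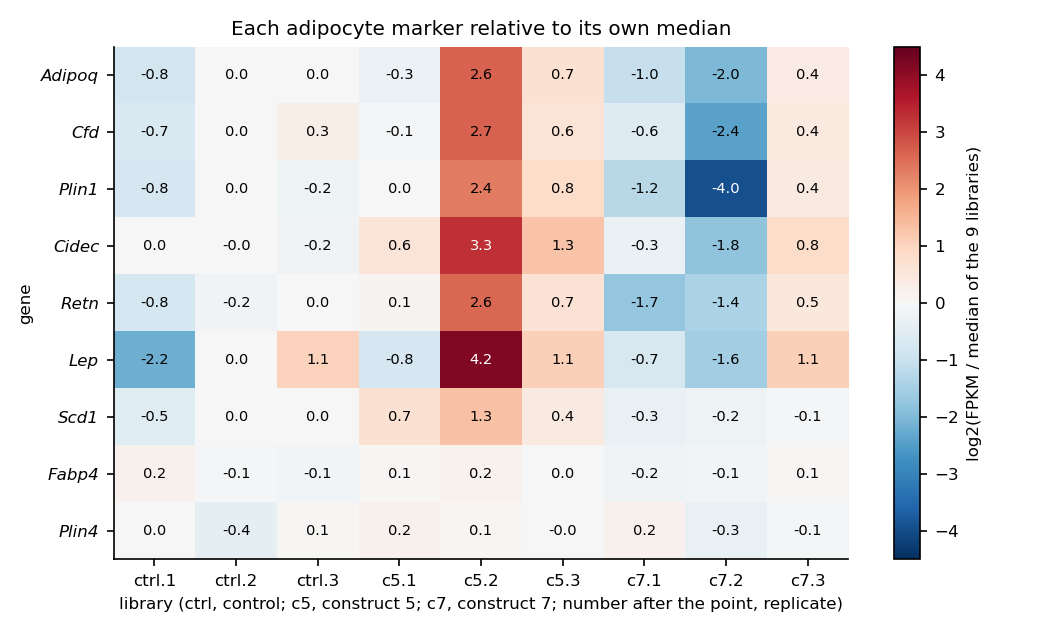
Each marker (vertical axis) in each library (horizontal axis) as log2 of its FPKM over its own median of 9 libraries; red is above and blue below. Construct 5 replicate 2 is red for the first 7 markers, with Adipoq at 8.09 FPKM, and construct 7 replicate 2 is blue for the upper ones, with Adipoq at 0.320 FPKM, while the bottom pair, Fabp4 and Plin4, stays pale.

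Of the markers that swung, Cfd, Cidec, Retn, Plin1 and Lep kept to a narrower range relative to Adipoq than in level. The ratio of Cfd to Adipoq stayed between 5.02 and 8.82 (median 6.74), a 1.76-fold range, while each gene ranged over more than an order of magnitude. The ratio of Cidec to Adipoq lay between 0.300 and 0.623, and that of Retn to Adipoq between 0.125 and 0.309. Plin1 kept a ratio near its median of 0.328 except in construct 7 replicate 2, where it was 0.0848. Lep, with few reads, was the least proportional of them. Its ratio to Adipoq ran from 0.0137 to 0.104, a 7.54-fold range against 82.3-fold in level, and the lowest ratio rested on 1 read in control replicate 1. The ratio of Scd1 to Adipoq ranged from 1.31 to 11.2, that of Plin4 from 5.66 to 107, and that of Fabp4 from 38.0 to 797.

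Correlations with Adipoq over the 9 libraries were computed on the log2(FPKM + 1) scale. Cfd followed Adipoq with Pearson's r = 0.968 (exact permutation p = 8.27e-06, 3.31e-05 after Benjamini-Hochberg adjustment over 4 relations) and Spearman's rho = 0.983 (adjusted exact permutation p = 0.000198). Leaving out construct 5 replicate 2 and construct 7 replicate 2, the libraries farthest from the Adipoq median, r was 0.974. With group means removed r was 0.952, so the relation held within groups. Scd1 gave r = 0.849 (adjusted exact permutation p = 0.0174) and rho = 0.700 (adjusted exact permutation p = 0.0865), but r fell to 0.530 without the same pair of libraries. Of that pair, construct 5 replicate 2 mattered more: r was 0.544 without it and 0.847 without construct 7 replicate 2. Construct 5 replicate 1 pulled the other way: r was 0.954 without it, and 0.901 when the pair was left out as well. With group means removed Scd1 gave r = 0.797 (adjusted permutation p = 0.0226). That p-value is only approximate, because deviations sum to 0 within each group and were permuted freely across groups. Fabp4 gave r = 0.518 and rho = 0.400 (adjusted exact permutation p = 0.192 and 0.388), though without control replicate 1 its r was 0.796 (adjusted exact permutation p = 0.0197) and passed the threshold. Plin4 gave r = 0.227 and rho = 0.0167 (adjusted exact permutation p = 0.545 and 0.982). Without construct 5 replicate 2 and construct 7 replicate 2, r became 0.0196 for Fabp4 and -0.36 for Plin4.

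The 4 markers under a mean of 1 FPKM, a family added after the data were seen, gave r of 0.942 to 0.995 with Adipoq. Plin1 gave r = 0.995 and rho = 0.950 (adjusted exact permutation p = 6.61e-05 and 0.00141), with r = 0.965 without the 2 libraries. Retn gave r = 0.982 and rho = 0.933 (adjusted exact permutation p = 0.000138 and 0.0015), with 0.953 without them. For Cidec r was 0.975 and rho 0.850 (adjusted exact permutation p = 0.000265 and 0.00607), with 0.794 without them. For Lep r was 0.942 and rho 0.917 (adjusted exact permutation p = 0.000265 and 0.00175), with 0.866 without them. The points are the same 9 libraries for every marker, so these relations are not independent of each other.

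**Figure D4:**
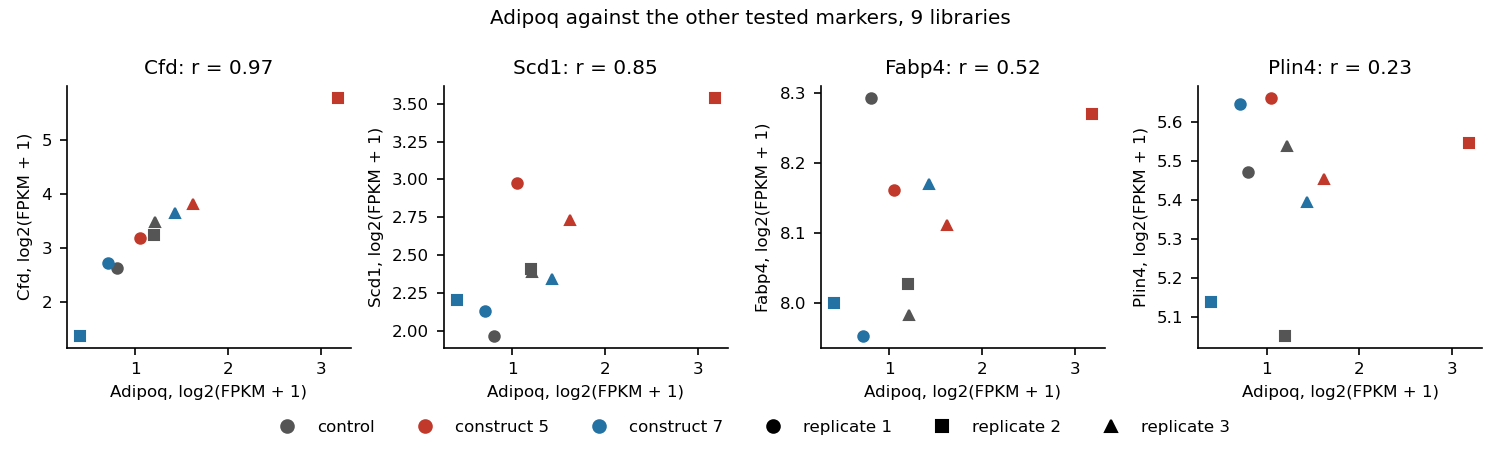
Adipoq (horizontal axes) against Cfd, Scd1, Fabp4 and Plin4 (vertical axes), all in log2(FPKM + 1), 1 point per library; colour is the group and shape the replicate number. Cfd lies along a line through all groups (r = 0.968), while Plin4 shows no trend (r = 0.227).

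Outside the 9 markers, the 10 named genes whose log2 levels followed Adipoq most closely over the 9 libraries were Hp, Cyp2e1, Man1a, Sepp1, C4b, Dpt, Add3, Sash1, Snx18 and Efemp1, with r from 0.988 down to 0.923. In all, 32 of 10789 other tested genes had r over 0.9 (0.297%), and the median r was 0.23. Hp encodes haptoglobin, a haemoglobin-binding plasma protein that fat cells also make. Hp stood at 0.889, 1.5 and 2.01 FPKM in the controls, 1.28, 10.5 and 3.31 with construct 5, and 0.888, 0.407 and 2.83 with construct 7, the same high and low libraries as Adipoq. Without those 2 libraries Hp kept r = 0.973, while the rest of the 10 fell to between 0.374 (Snx18) and 0.779 (Cyp2e1). For all of these but Hp, the likeness rested at least in part on the extreme libraries.

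Other genes of the fat cell were listed with the markers. Of 17 other adipocyte-enriched genes, 11 were highest in construct 5 replicate 2 and 7 were lowest in construct 7 replicate 2. Among the 8 that were tested these counts were 4 and 2, against 21.5% and 11.8% of all tested genes. None of the 8 was called with construct 5 or construct 7, where 5.27% and 0.0556% of all tested genes were. Their median log2 change with construct 5 was 0.29. Car3 and Gpd1, the most abundant of them, encode a carbonic anhydrase and a glycerol phosphate dehydrogenase that muscle fibres also express. Car3 gave a log2 change of 0.15 (limma adjusted p = 0.611) and Gpd1 of -0.07 (limma adjusted p = 0.607) with construct 5. Among 9 adipogenic transcription factors none was called with either construct, with a median log2 change of 0.21 with construct 5. Rxra and Ebf1, the most abundant of them, gave log2 changes of -0.31 and 0.21 (limma adjusted p = 0.174 and 0.155). Pparg, the master regulator of the fat cell, named after its values were seen, stood at 1.03, 0.842 and 0.954 FPKM in the controls, 1.22, 1.47 and 1.21 with construct 5, and 1.08, 1.21 and 1.44 with construct 7. Its level ranged 1.75-fold over the libraries, against 25.3-fold for Adipoq, and its log2 change with construct 5 was 0.24 (limma adjusted p = 0.103). Cebpa, also named after its values were seen, was 2.25 times the median of the other 8 libraries in construct 5 replicate 2. Its log2 change with construct 5 was 0.46 (limma adjusted p = 0.112). Of the 9 factors, 2 were highest in that library and 4 were lowest in construct 7 replicate 2.

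Lipid droplet proteins other than the markers had 1 call in 8 tested genes with construct 5, where 5.27% of all tested genes passed. Calls of genes outside the markers are given without the alternatives, and the number of genes called with construct 5 varied widely between those. Plin2, the perilipin found in most cell types that store lipid, muscle fibres included, stood at 9.29, 10.1 and 8.79 FPKM in the controls, 14.4, 15.4 and 13.9 with construct 5, and 9.11, 11.7 and 12.7 with construct 7. Plin2 was called higher with construct 5, by a log2 change of 0.59 (SE 0.110, limma adjusted p = 0.0406). It was even over the 3 libraries, whereas most of the excess of Plin1 and Cidec lay in 1 of them. With construct 7 the log2 change of Plin2 was 0.22 (limma adjusted p = 0.587). None passed among 15 genes of fatty acid and triglyceride synthesis, 5 of lipolysis, 8 of fatty acid uptake and binding, 3 adipokine receptors and 3 markers of brown and beige fat, with either construct. Of 10 listed brown and beige fat genes only those 3 reached a mean of 1 FPKM. Cox8b and Tbx1 were the most abundant, at means of 733 and 24.8 FPKM, and which cells they came from was not tested. The median log2 changes with construct 5 were 0.06 for synthesis, 0.02 for lipolysis and 0.06 for uptake. Adipor1 and Adipor2, the receptors for adiponectin, stood at means of 50.5 and 34.3 FPKM and gave log2 changes of -0.10 and 0.06 with construct 5 (limma adjusted p = 0.398 and 0.610).

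Markers of other cell types were listed too, and the lists differed in which libraries were highest and lowest. Fibro-adipogenic progenitor genes (9 tested of 10) summed to 436 FPKM in construct 5 replicate 2, against 260 to 299.7 in the controls, 280.5 and 280.0 in the other construct 5 libraries and 228 to 277 with construct 7. Of these 9, 8 were highest in construct 5 replicate 2 and 6 were lowest in construct 7 replicate 2. Both counts include Osr1, which passed the filter of 1 FPKM only through construct 5 replicate 2. Its mean was 1.01 FPKM, with 1.63 in that library and a median of 0.945 in the others. None was called with construct 5 or construct 7, where 5.27% and 0.0556% of all tested genes were. Dcn, the collagen-binding proteoglycan decorin and the most abundant of them, reached 193 FPKM in construct 5 replicate 2 and lay between 98.5 and 131 elsewhere. Its excess was smaller than that of Adipoq, at 1.57 times the median of the other libraries. Over the 9 genes the median of this ratio was 1.63. It was at least 2 for 2 of them, at 3.69 and 3.38, where 2.12% of all tested genes reached 2. No gene of this list was at 0 in any library.

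Macrophage genes (9 tested of 10, none at 0 in any library) summed to 122 to 182 FPKM in the controls, to 277, 365 and 202 with construct 5 and to 99.7 to 152 with construct 7. In this list 8 of 9 were highest in construct 5 replicate 2, at a median of 2.22 times the other libraries, but construct 7 replicate 2 was lowest for 0 of 9. In construct 5 replicate 2, 8 of the 9 were at least 2-fold above the median of the other libraries. This held for 3 of the 5 tested adipocyte markers and 2.12% of all tested genes, so such an excess was not particular to the markers. With construct 5, 2 of the 9 were called higher, where 5.27% of all tested genes were called. These were Lyz2 and Lgals3, lysozyme and galectin-3 of phagocytes, with log2 changes of 0.90 and 1.36 (limma adjusted p = 0.0491 and 0.0476). The 4 tested globin genes, near-identical copies between which reads may be shared, were all highest in construct 5 replicate 2, with a blood list sum of 417 FPKM there against 178 to 363 elsewhere. Tendon genes summed to 123 FPKM in that library and up to 191 in construct 5 replicate 1. Of 7 tested tendon genes, 2 were called higher with construct 5. These were Comp and Kera, proteins of the tendon matrix, with log2 changes of 0.96 and 1.12 (limma adjusted p = 0.0406 for each). Genes of peripheral nerve (3 tested) had no call and summed to 27.0 FPKM in construct 5 replicate 2, within the 14.1 to 32.3 of the others. Muscle fibre genes summed to 61908 FPKM in construct 5 replicate 2, within the 55426 to 72720 of the others. Krt10, the tested gene of the skin list, stood at 1.01 FPKM in construct 5 replicate 2, and its highest value, 5.53, was in control replicate 2. The part of these cell types, and of the greater depth of construct 5 replicate 2, in the level of the adipocyte markers was not tested.

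**Figure D5:**
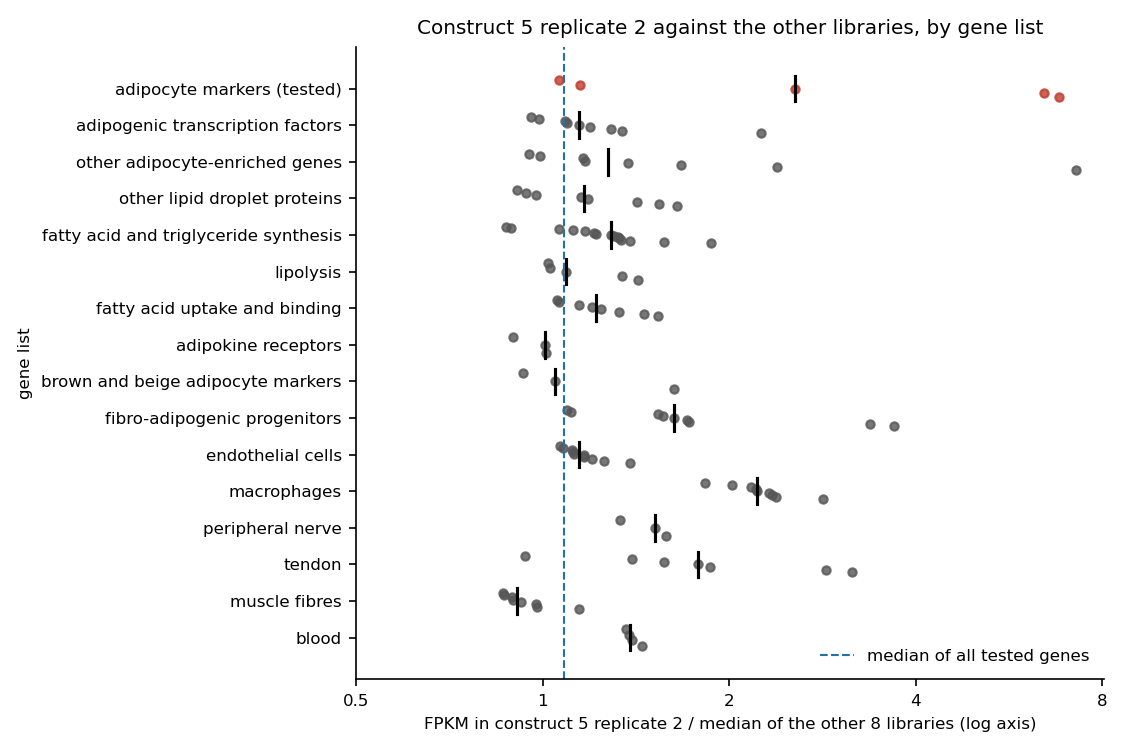
FPKM in construct 5 replicate 2 over the median of the other 8 libraries (horizontal axis, log scale) for each tested gene of each list (vertical axis); bars are list medians and the dashed line the median of all tested genes, 1.08. The markers reach 6.82 for Adipoq, with a list median of 2.56, macrophage genes have a median of 2.22, and muscle fibre genes lie around 0.909.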

How the data were processed

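RNA was extracted with trizol from muscle and sequenced on an Illumina instrument, per the labels' protocols. The authors deposited FPKM values for 23231 genes. The submitters' processing notes name BWA, STAR, HTSeq and the mouse genome mm9, with no versions or roles. No mm9 annotation was used, so mm9 positions are not given. The members and lists were chosen with earlier results of these data known.

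Genes with a mean of at least 1 FPKM (10794) were tested on log2(FPKM + 1), which understates changes of low genes, with limma 3.58.1 in R 4.3.3 (eBayes with trend) over all 9 libraries. P-values were Benjamini-Hochberg adjusted over all genes tested, with a threshold of 0.05. The procedure was tested on simulated data. Depth came from FPKM increments and GENCODE M21 exon lengths: 72.8% of 51723 values under 50 reads were whole within 0.1 reads. Reads are printed only for genes whose values were whole. Correlations used two-sided exact permutation over all pairings (SciPy 1.17.1).

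Named genes were Ubr4, the 9 markers, the 10 genes most like Adipoq and, per other list, each called gene or else the 2 most abundant, some given only in counts. Pparg and Cebpa are outside this rule and were named after their values were seen. Alternatives were pseudocounts of 0.1 and 0.5, a filter at 5 FPKM or none, quantile normalization, median-ratio scaling, only the libraries compared, a replicate block, robust spread and leaving out each library. Chosen after seeing the data were voom on recovered reads, median-ratio scaling without construct 5 replicate 2, and relations of the markers under 1 FPKM. Strand is not given in the sources used here, so overlapping genes are uncertain.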

Additional observations from a re-analysis of the deposited data

How the results depend on the processing

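Scd1 with construct 5, the 1 marker called, was called with a pseudocount of 0.5 and without construct 5 replicate 3. The number of markers called there was 0 with a pseudocount of 0.1, without the filter, with one at 5 FPKM, with quantile normalization, median-ratio scaling (also without construct 5 replicate 2), only the libraries compared, the replicate block (Scd1 adjusted p = 0.0553), robust spread and voom; leaving out 1 library gave 0 to 1 there and 0 to 1 between constructs. Over all genes, the 569 calls with construct 5 became 316 with a pseudocount of 0.1, 5 with no filter, 204 at 5 FPKM, 78 with median-ratio scaling, 86 with quantile normalization, 251 with only the libraries compared, 11 with the replicate block, 224 with voom, 34 with median-ratio scaling without construct 5 replicate 2, and 1 to 578 leaving out 1 library. The 6 calls with construct 7 became 0 with no filter, 2 with only the libraries compared and 0 to 5 leaving out 1 library. The 132 between constructs became 10 with no filter, 48 at 5 FPKM, 79 with median-ratio scaling, 58 with quantile normalization, 23 with only the libraries compared, 217 with the replicate block, 27 with median-ratio scaling without construct 5 replicate 2, and 3 to 376 leaving out 1 library. The 1 for both constructs became 0 with no filter, 2 at 5 FPKM, 4 with the replicate block, 2 with voom, 3 with median-ratio scaling without construct 5 replicate 2, and 0 to 7 leaving out 1 library. The cause was not tested. The replicate numbers did not pair the samples: deviations of same-numbered libraries correlated from -0.364 to 0.313, and 2 of 9 libraries correlated best with their own number. Of 391 alternative log2 changes of the 5 tested markers, 352 kept sign and side of the threshold, 18 lost the call, all of Scd1, 1 gained it and 20 turned sign, all uncalled. Under median-ratio scaling Fabp4 turned to -0.0668 with construct 5 and -0.0766 for both constructs. Under that scaling without construct 5 replicate 2 it turned to -0.107, -0.0960 and, between constructs, 0.0227, and for both constructs Adipoq turned to -0.0258 and Cfd to -0.155. Leaving out 1 library, the change with construct 7 ranged from -0.111 to 0.168 for Plin4, -0.124 to 0.0366 for Fabp4, -1.06 to 0.0632 for Cfd and -0.174 to 0.0456 for Scd1, and that for both constructs from -0.0304 to 0.213 for Plin4, -0.0483 to 0.106 for Fabp4 and -0.0796 to 0.599 for Cfd. The Adipoq relation with Plin4 turned to -0.0395 with group means removed. Leaving out 1 library, that with Fabp4 ranged from 0.213 to 0.796 (without control replicate 1, where it passed the threshold). That with Scd1 then ranged from 0.544 (without construct 5 replicate 2) to 0.954 (without construct 5 replicate 1). Depth limits Lep, Retn and Cidec, which had as few as 1, 4 and 9 reads.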
